A study of Mus musculus with 4 samples.

Results

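Genomic imprinting was described here through 10 genes, Igf2, H19, Grb10, Plagl1, Dlk1, Meg3, Rian, Peg3, Peg10 and Ndn, in cells of the medial ganglionic eminence (MGE) of mouse embryos at e14.5. The MGE is a zone of the ventral embryonic forebrain where dividing progenitors give rise to interneurons and projection neurons. The 10 genes, of 32285 in the files, were chosen by their measured levels across these same cells, so their differences between cell types are given as a description, without a test. Droplet-based (10x Genomics) RNA sequencing of single cells had given 4 libraries, 2 of St18 null and 2 of WT embryos. St18 null embryos were whole-animal St18 (-/-), from an allele whose exons 9 and 10 had been deleted in the germline with E2a-Cre, which shifts the reading frame. WT embryos were littermates. All embryos had heterozygous St18 parents of a mixed C57/BL6-ICR strain, and MGE tissue was pooled by genotype after genotyping. How many embryos entered a pool, and of which sex, was not stated, so p-values measure the spread between these libraries. St18 encodes a zinc finger transcription factor, and the comparison of null with WT asks what its loss changes in the MGE.

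An imprinted gene is expressed mainly from the copy of one parent, because marks set in the germline keep the other copy silent. Many imprinted genes act on growth in opposite directions, and many are highly expressed in the embryonic brain. The counts used here hold no information on the parental copy, so they give total expression only. Igf2 encodes a growth factor ligand, Grb10 an adaptor that restrains insulin and insulin-like growth factor receptors, and Plagl1 (Zac1) a zinc finger transcription factor that slows division. H19 is a long noncoding RNA that carries a microRNA. Dlk1 encodes a membrane protein related to Notch ligands, and Meg3 and Rian are noncoding RNAs of the same locus. Peg3 encodes a zinc finger protein, Peg10 a protein derived from a retrotransposon, and Ndn the protein necdin, which is known from postmitotic neurons.

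By the GENCODE M21 annotation of build GRCm38, 4 members lay on chromosome 7. Igf2 (ENSMUSG00000048583) was at chr7:142650766-142666816 and H19 (ENSMUSG00000000031) at chr7:142575529-142578143, both on the minus strand and 72622 bases apart. Peg3 (ENSMUSG00000002265) was at chr7:6703892-6730431 and Ndn (ENSMUSG00000033585) at chr7:62346569-62350262. On chromosome 12, Dlk1 (ENSMUSG00000040856) was at chr12:109452823-109463336, Meg3 (ENSMUSG00000021268) at chr12:109541001-109571726 and Rian (ENSMUSG00000097451) at chr12:109603940-109661716, all on the plus strand. The gaps were 77664 bases between Dlk1 and Meg3 and 32213 bases between Meg3 and Rian. Peg10 (ENSMUSG00000092035) was at chr6:4747306-4760517, Plagl1 (ENSMUSG00000019817) at chr10:13060504-13131694 and Grb10 (ENSMUSG00000020176) at chr11:11930508-12038683. Ndn overlapped the opposite-strand gene Gm32061, and Igf2 the opposite-strand gene Igf2os. A readthrough gene, Gm49394, shared most of the Igf2 span on the same strand in the annotation.

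Of the 10 members, 4 spanned microRNA hairpins of RefSeq (GRCm38.p6) on their own strand: 1 in H19, 1 in Igf2, 1 in Meg3 and 3 in Rian. Meg3 also spanned the mature mmu-miR-1906 on its own strand, which had no hairpin entry and is not in this count. The mature microRNAs were not measured here, and a host gene's count is not their level. They are shown for H19, Meg3 and Rian, the 3 noncoding members, each of which differed between progenitors and neurons in all 4 libraries. Capitals mark the seed, bases 2 to 8. Given are both arms of the H19 microRNA, both arms of miR-770 from Meg3 and 1 arm from Rian, which have 5 different seeds.
mmu-miR-675-5p (H19): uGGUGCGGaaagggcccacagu
mmu-miR-675-3p (H19): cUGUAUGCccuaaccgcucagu
mmu-miR-770-5p (Meg3): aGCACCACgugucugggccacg
mmu-miR-770-3p (Meg3): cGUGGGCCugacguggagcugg
mmu-miR-370-3p (Rian): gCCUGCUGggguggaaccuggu

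RefSeq promoter windows of 250 bases before a start site were at hand for 8 of the 10 members, with 13 windows in all. The missing entries are Peg10 and H19. Each window was searched for the cyclic AMP response element TGACGTCA and for GGGGCCCC, a sequence known to be bound by Plagl1. Both read the same on either strand, and they do not overlap each other. Of 32851 windows of this length, 1.55% held the first and 0.889% the second. Among the members, Meg3 (at its first start site) and Peg3 held TGACGTCA, and Peg3 also held GGGGCCCC. A match is a description of letters, not of a bound site. The windows of the 3 genes of chromosome 12 are shown because Meg3 and Rian followed each other across clusters of cells, and Dlk1 did so less closely. The Peg3 window is shown for its matches, and capitals mark the motifs.
Meg3, chr12:109540746-109540995, plus strand: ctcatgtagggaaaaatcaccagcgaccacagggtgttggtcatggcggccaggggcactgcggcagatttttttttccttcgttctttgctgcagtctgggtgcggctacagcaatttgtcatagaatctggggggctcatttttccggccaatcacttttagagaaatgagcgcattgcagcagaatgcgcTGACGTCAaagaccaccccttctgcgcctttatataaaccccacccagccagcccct
Rian, chr12:109603695-109603944, plus strand: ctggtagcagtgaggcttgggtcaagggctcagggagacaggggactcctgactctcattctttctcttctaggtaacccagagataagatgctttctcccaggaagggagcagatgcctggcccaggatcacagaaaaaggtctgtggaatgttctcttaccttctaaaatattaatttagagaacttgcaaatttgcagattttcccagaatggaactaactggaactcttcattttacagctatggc
Dlk1, chr12:109452573-109452822, plus strand: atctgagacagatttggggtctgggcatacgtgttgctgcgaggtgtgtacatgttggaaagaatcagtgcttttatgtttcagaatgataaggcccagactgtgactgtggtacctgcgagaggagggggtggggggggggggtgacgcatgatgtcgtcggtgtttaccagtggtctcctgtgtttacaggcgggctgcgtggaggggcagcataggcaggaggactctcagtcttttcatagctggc
Peg3, chr7:6730420-6730669, minus strand: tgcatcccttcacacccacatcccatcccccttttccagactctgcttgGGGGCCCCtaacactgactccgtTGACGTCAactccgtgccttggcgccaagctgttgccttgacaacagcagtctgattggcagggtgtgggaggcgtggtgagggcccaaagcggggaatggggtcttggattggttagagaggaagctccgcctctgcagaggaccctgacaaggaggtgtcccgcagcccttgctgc
In the first Meg3 window the element began 57 bases before the start site. In the Peg3 window GGGGCCCC began 201 bases and TGACGTCA 178 bases before it. The windows of Rian and the second Meg3 start site held 0 CpG dinucleotides, against 40 in the first Grb10 window, 19 in Plagl1 and a median of 6 over all windows.

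The 4 libraries held between 70991150 and 92984713 unique molecular identifiers (UMIs), each of which counts 1 captured RNA molecule. A barcode was taken as a cell if it held 2000 UMIs or more from 200 genes or more, with a mitochondrial share of up to 10%. After removal of doublets, 20289 cells were left, 4297 to 6800 per library, with medians of 5827 to 8591 UMIs. Any pair of libraries shared 5 to 10 cell barcodes. Clustering gave 8686 progenitors, 11279 neurons and 324 other cells, and levels are given as CPM, for which each library and cell group is brought to one common total. Of these, 4857 progenitors and 7206 neurons lay in clusters that stayed unnamed. Comparisons between groups cover only the named groups. The 7 neuron markers summed to 5501 to 6161 CPM in neurons and 1327 to 1524 CPM in progenitors. The 10 progenitor markers summed to 5258 to 6319 CPM in progenitors and 992 to 1290 CPM in neurons. The paper reports that null samples keep some St18 transcript, at lower levels in neurons, and that staining found no St18 protein in null embryos. Here St18 RNA in neurons did not follow the labels. It stood at 24.6 CPM in null replicate 1 but at 74.8 CPM in null replicate 2, against 43.9 and 57.0 CPM in WT. A count per gene does not show whether exons 9 and 10 were present, so it cannot check the deletion, and that library is called the library labelled null replicate 2. Xist, which is transcribed in female cells, had 12899 and 28238 UMIs in null neurons and 4 and 1 in WT neurons, so embryo sex and genotype cannot be told apart in these pools.

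Among the members with at least 10 CPM in a class, Ndn, Meg3, Rian and Peg10 were higher in neurons in all 4 libraries, and H19, Grb10 and Plagl1 were higher in progenitors in all 4. Peg3 and Dlk1 were mixed, and Igf2 lay below 10 CPM in both classes. All values are CPM of the summed cells of a library, and a log2 ratio is that of neurons over progenitors within a library, with the SD over 4 libraries. By the same rule, 46.8% of the 9142 genes with at least 10 CPM were higher in neurons in all 4 libraries and 40.8% in progenitors.

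**Figure D1:**
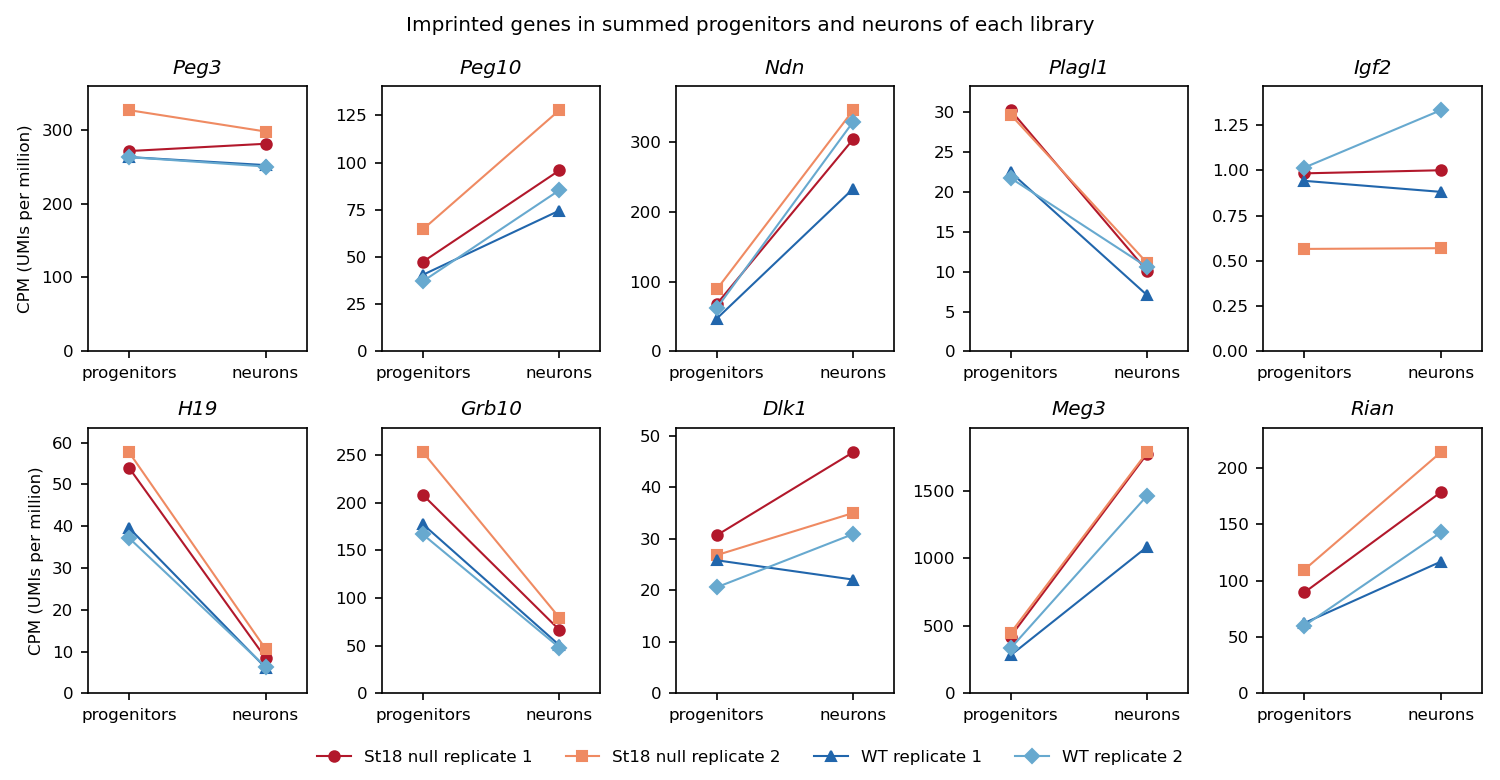
CPM of each gene (y axes, each from 0) in the summed progenitors and the summed neurons of each of the 4 libraries, joined by a line per library. Ndn, Meg3, Rian and Peg10 are higher in neurons in all 4 libraries, and H19, Grb10 and Plagl1 are higher in progenitors in all 4.

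H19 had the lowest ratio of the members. It stood at 54.0 and 57.7 CPM in the progenitors of the null libraries and at 39.6 and 37.2 CPM in those of WT. In neurons it stood at 8.50 and 10.7 CPM in null and at 6.17 and 6.37 CPM in WT. Every neuron value lay below every progenitor value, and the log2 ratio was -2.58 ± 0.12 (SD, n = 4), which is 5.99-fold lower in neurons. Of the progenitor and neuron groups, radial glia-like cells, the progenitors that line the ventricle, were highest, with 70.5 to 94.5 CPM. Dividing progenitor-like cells had 20.6 to 46.4 CPM and basal progenitor-like cells, which divide away from the ventricle, 25.6 to 57.0 CPM, and both ranges lay below that of radial glia-like cells. Among clusters, progenitor cluster 6, a radial glia-like one led by Rgcc, Sparc and Pcp4, was highest, with 87.6 to 148 CPM. Single clusters did not all keep the order of the groups. Dividing progenitor-like cluster 13 had 28.8 to 89.2 CPM and radial glia-like cluster 10 had 50.9 to 67.7 CPM. Background droplets, barcodes with under 100 UMIs, held 16.3 to 33.6 CPM of H19, which is above every neuron value, and the part of free RNA in the neuron values was not tested.

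Grb10 followed the same order with a smaller ratio. Its progenitor values were 208 and 253 CPM in null and 178 and 167 in WT. Its neuron values were 66.6 and 79.4 CPM in null and 50.6 and 48.1 in WT. The log2 ratio was -1.73 ± 0.08 (SD, n = 4), or 3.32-fold lower in neurons. For Grb10, unlike for H19, radial glia-like cells as a whole group did not stand apart from the other named progenitor groups. They had 176 to 299 CPM, basal progenitor-like cells 208 to 303 CPM and dividing progenitor-like cells 166 to 227 CPM. Progenitor cluster 12, radial glia-like and led by Dio3, Ptx3 and Hhip, was highest of all, with 298 to 461 CPM, and the same cluster had 6.76 to 19.8 CPM of H19. At the low end, pallidal or basal forebrain neuron-like cells had 3.61 to 20.01 CPM. Background droplets held 85.5 to 128 CPM.

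Of the progenitor and neuron groups, Plagl1 was highest in radial glia-like cells, though not in every cluster of them. In summed progenitors it stood at 30.3 and 29.7 CPM in null and at 22.5 and 21.8 CPM in WT. In summed neurons it stood at 10.1 and 11.1 CPM in null and at 7.05 and 10.6 CPM in WT, with a log2 ratio of -1.43 ± 0.28 (SD, n = 4). Radial glia-like cells had 55.8 to 79.0 CPM, and dividing progenitor-like cells 9.51 to 13.04 CPM, 5.84-fold lower. Of the progenitor and neuron groups the next was neuronal: LGE-lineage neuron-like cells, from the neighbouring lateral ganglionic eminence, had 21.3 to 41.5 CPM. This range met those of pallidal or basal forebrain neuron-like cells (2.29 to 21.3 CPM) and pallial neuron-like cells (0 to 23.4 CPM) and lay above those of the other named neuron groups. Neuron cluster 6, led by Ebf1, Isl1 and Crabp1, had 25.1 to 60.7 CPM. By pooled CPM it came next after radial glia-like clusters 6 (82.3), 10 (72.3) and 4 (69.1), with 37.2. Radial glia-like cluster 12 thus lay below this neuron cluster. In cortical interneuron precursor-like cells Plagl1 was at 2.06 to 4.20 CPM, below the 14.2 to 20.5 CPM of background droplets.

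Igf2 was low in progenitors and neurons and far higher in a few vascular cells. It had 70 UMIs in all 8686 progenitors and 64 UMIs in all 11279 neurons. Per library this was 0.566 to 1.02 CPM in progenitors and 0.570 to 1.33 CPM in neurons, below the 1.73 to 4.99 CPM of background droplets. The part of free RNA in these values was not tested. The cells outside both classes were divided by their markers after their mixed cluster had been seen, a cell needing at least 3 distinct markers of a type. Endothelial-like cells, which line vessels, numbered 18, and mural-like cells, which wrap them, numbered 13. Those 31 cells, 0.153% of all, held 188 of the 343 Igf2 UMIs, or 54.8% (exact binomial 95% interval 49.4 to 60.2%, counting error only). By library the share was 65.9% and 28.0% in null and 30.2% and 61.6% in WT, and without null replicate 1 it was 44.7% (80 of 179 UMIs). In endothelial-like cells Igf2 stood at 775 and 207 CPM in null and at 98.5 and 157 CPM in WT. In mural-like cells it stood at 784 and 177 CPM in null and at 985 and 671 CPM in WT, the second null value resting on 2 UMIs and the first WT value on 4. Every vascular value lay above the values of summed neurons and progenitors. The rest of the UMIs came from 14 other cells that stayed unnamed (17 UMIs, 13 of them in the library labelled null replicate 2) and from oligodendrocyte precursor-like cells (4 UMIs, all in null replicate 1). Igf2 had 0 UMIs in 155 erythroid-like cells and 0 in 93 microglia-like cells, where 3 UMIs would be 6.23 to 23.2 CPM in a library.

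The other growth-related members also appeared in vascular cells, from few UMIs. Dlk1 had 189 and 604 CPM in the endothelial-like cells of null and 54.7 and 375 in those of WT, and the 31 vascular cells held 3.03% of its UMIs. That share was 10.5% in WT replicate 2 and 1.57% without that library. Plagl1 had 81.2 and 121 CPM there in null and 87.5 and 33.6 in WT. H19 had 289 and 242 CPM in null and 32.8 and 50.4 in WT. With 3 to 6 endothelial-like cells in a library, the genotypes were not compared in them. Meg3 was found in vascular cells too, with 175 to 929 CPM in endothelial-like cells (298 UMIs). In the 13 mural-like cells its range over libraries was 0 to 5587 CPM (220 UMIs), and that of Rian 0 to 1153 CPM (43 UMIs). In erythroid-like and microglia-like cells Meg3 stood at 18.7 to 69.0 CPM, below its 571 to 989 CPM in background droplets.

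**Figure D2:**
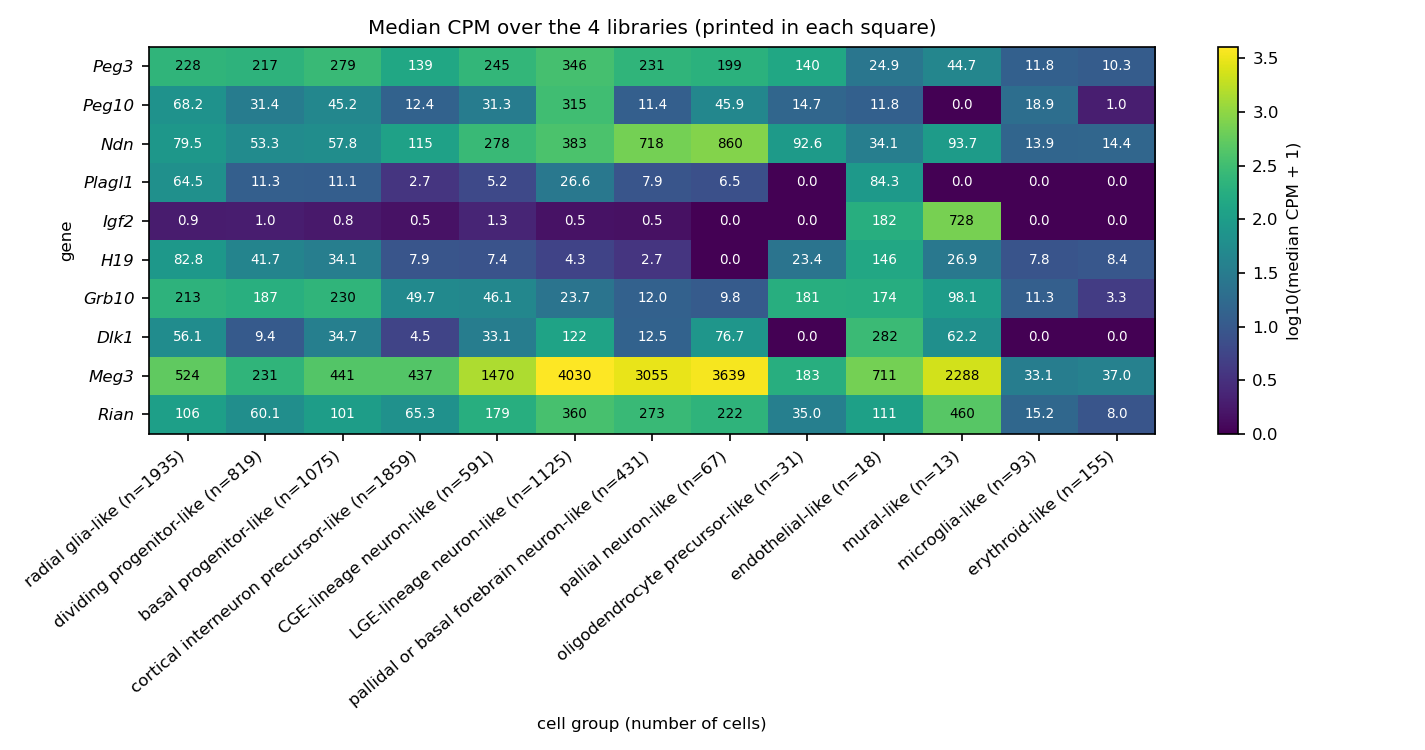
Median CPM over the 4 libraries (number in each square, colour on a log10 scale of CPM + 1) for the 10 genes in 13 named cell groups, with the number of cells. Igf2 is brightest in endothelial-like (182 CPM) and mural-like cells (728 CPM), Plagl1 and H19 in endothelial-like and radial glia-like cells, and Meg3 in LGE-lineage, pallial and pallidal neuron-like cells.

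Meg3 was higher in neurons in every library. Its neuron values were 1774 and 1786 CPM in null and 1085 and 1465 in WT. Its progenitor values were 421 and 447 CPM in null and 282 and 334 in WT. The log2 ratio was 2.04 ± 0.08 (SD, n = 4), or 4.11-fold. The neuron groups spread widely. LGE-lineage neuron-like cells had 3114 to 4928 CPM and pallidal or basal forebrain neuron-like cells 1879 to 3824 CPM, which overlapped. CGE-lineage neuron-like cells, from the caudal ganglionic eminence, had 1009 to 1786 CPM. Cortical interneuron precursor-like cells, marked by Maf, Erbb4 and Zeb2, had 360 to 531 CPM, within the 264 to 616 CPM of basal progenitor-like cells. Within libraries, LGE-lineage neuron-like cells were 8.97-fold above cortical interneuron precursor-like cells, a log2 ratio of 3.17 ± 0.27 (SD, n = 4). Background droplets held 571 to 989 CPM of Meg3, above the progenitor values. This is a share of the UMIs in such barcodes, not an amount of free RNA.

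Rian showed a like order of neuron groups in narrower steps. It stood at 179 and 214 CPM in null neurons and at 117 and 143 CPM in WT neurons. It stood at 89.6 and 110 CPM in null progenitors and at 62.5 and 60.1 CPM in WT progenitors. The log2 ratio was 1.03 ± 0.15 (SD, n = 4). LGE-lineage neuron-like cells had the highest median of the neuron groups with 278 to 492 CPM, overlapping pallidal or basal forebrain neuron-like cells (194 to 392 CPM), and cortical interneuron precursor-like (56.0 to 96.1 CPM) and dividing progenitor-like cells (39.1 to 104 CPM) overlapped at the low end. Background droplets held 80.8 to 106 CPM of Rian. This was above the progenitor value of the same library in both WT libraries and in null replicate 1 (97.1 against 89.6 CPM). It was not above it in the library labelled null replicate 2 (106 against 110 CPM). Neuron cluster 18 stood apart for both genes: these 165 cells, led by Snhg11, Pfkp and Meg3, had 11578 to 16852 CPM of Meg3 and 876 to 1202 CPM of Rian. The same cluster had a median of 3095 UMIs per cell and 59322 CPM of Malat1, a nuclear noncoding RNA, the highest of 40 clusters. Neuron cluster 8, led by Gap43, Rac3 and Serp2, had 83.4 to 270 CPM of Meg3 at a median of 2654 UMIs and 1253 CPM of Malat1.

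Dlk1, the coding gene at the other end of the locus, had another pattern. It stood at 46.8 and 35.0 CPM in null neurons and at 22.1 and 30.9 CPM in WT neurons. It stood at 30.7 and 26.8 CPM in null progenitors and at 25.8 and 20.6 CPM in WT progenitors. Neurons were higher in 3 of 4 libraries and lower in WT replicate 1, with a log2 ratio of 0.34 ± 0.39 (SD, n = 4). Within each class, however, groups were far apart. LGE-lineage neuron-like cells had 91.3 to 211 CPM and cortical interneuron precursor-like cells 2.88 to 7.98 CPM, a 27.9-fold difference. Radial glia-like cells had 47.9 to 62.4 CPM and dividing progenitor-like cells 3.43 to 10.1 CPM, a 7.45-fold difference. The clusters with most Dlk1 were neuron cluster 6 (135 to 288 CPM), progenitor cluster 10, led by Fabp7, Bcan and Apoe (98.2 to 208 CPM), and progenitor cluster 16, led by Isl1, Cdkn1c and Gsx1 (95.8 to 166 CPM). Background droplets held 20.5 to 27.1 CPM.

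Across the 40 neuron and progenitor clusters, Meg3 and Rian had a Pearson r of 0.95 on the scale of log2(CPM + 10), 0.94 within the 18 progenitor clusters and 0.94 within the 22 neuron clusters. Dlk1 and Rian had 0.61 over all, 0.86 in progenitor and 0.59 in neuron clusters. Dlk1 and Meg3 had 0.48, 0.78 and 0.46. Ndn and Grb10 had -0.89 over all, but -0.41 within progenitor and -0.79 within neuron clusters. Igf2 and H19, neighbours on chromosome 7, had -0.04. Malat1 had 0.81 with Meg3, 0.67 with Rian and 0.12 with Dlk1 over the same clusters, and its part in the first correlation was not tested. The clusters share libraries and were built from genes of these cells, so these values are descriptions.

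**Figure D3:**
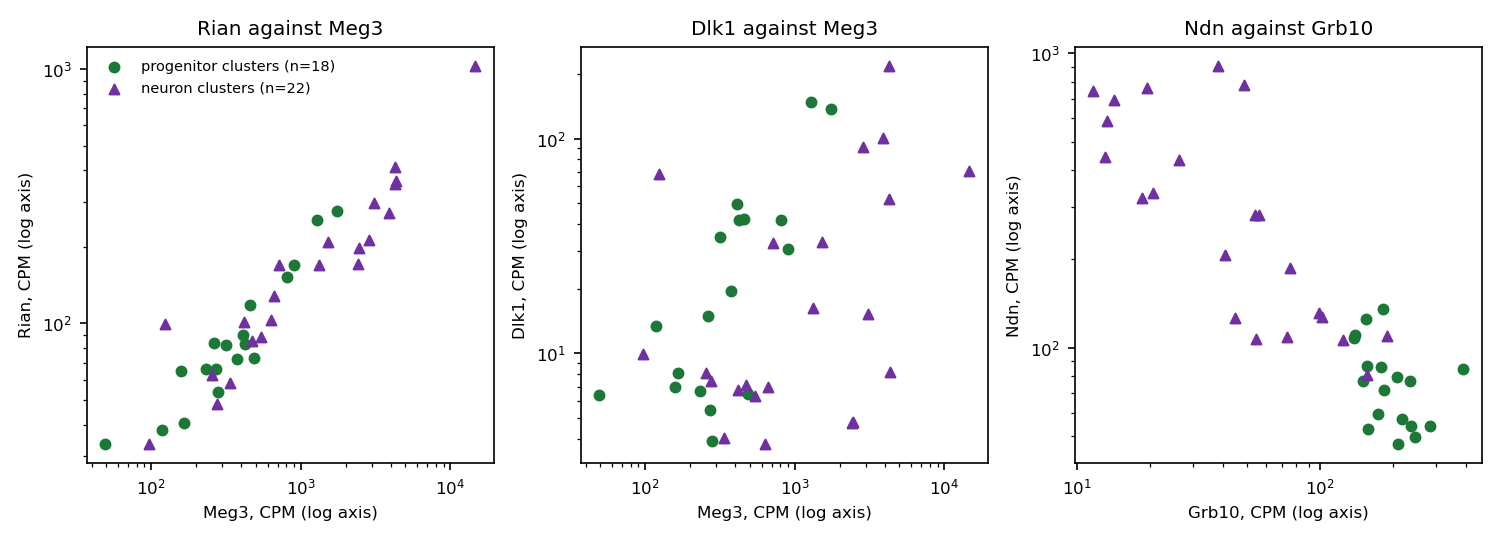
Pooled CPM in 18 progenitor clusters (green circles) and 22 neuron clusters (purple triangles), log axes, for Rian against Meg3, Dlk1 against Meg3 and Ndn against Grb10. Rian follows Meg3 in both classes (r = 0.94 in each), Dlk1 spreads widely at a given Meg3 level, and Ndn against Grb10 has r = -0.41 in progenitor and -0.79 in neuron clusters.

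Ndn was the member with the highest ratio. Its neuron values were 304 and 345 CPM in null and 233 and 329 in WT. Its progenitor values were 67.7 and 88.7 CPM in null and 46.9 and 61.9 in WT. The log2 ratio was 2.21 ± 0.20 (SD, n = 4), or 4.63-fold. Pallidal or basal forebrain neuron-like cells had 614 to 948 CPM, above the 284 to 457 CPM of LGE-lineage neuron-like cells, while cortical interneuron precursor-like cells had 99.2 to 133 CPM. The 67 pallial neuron-like cells, led by Neurod6, had 519 to 1256 CPM. Radial glia-like cells (55.5 to 109 CPM) overlapped with cortical interneuron precursor-like cells. Background droplets held 161 to 249 CPM, above the progenitor values.

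Peg10 was higher in neurons, with levels far apart among the neuron groups. It stood at 95.9 and 128 CPM in null neurons and at 74.6 and 85.4 CPM in WT neurons. It stood at 47.4 and 64.6 CPM in null progenitors and at 40.6 and 37.1 CPM in WT progenitors. The log2 ratio was 1.02 ± 0.13 (SD, n = 4). LGE-lineage neuron-like cells had 242 to 444 CPM, 22.7-fold above cortical interneuron precursor-like cells (11.2 to 23.4 CPM) and 27.5-fold above pallidal or basal forebrain neuron-like cells (10.8 to 13.3 CPM). Radial glia-like cells had 50.9 to 107 CPM. Neuron cluster 10, led by Peg10 itself with Zdbf2 and Calb1, had 442 to 762 CPM. Background droplets held 62.4 to 72.7 CPM.

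Peg3 had the ratio nearest to 0 of the 9 members with at least 10 CPM. It stood at 281 and 297 CPM in null neurons and at 252 and 250 CPM in WT neurons. It stood at 271 and 326 CPM in null progenitors and at 263 CPM in both WT libraries. The log2 ratio was -0.05 ± 0.08 (SD, n = 4). Within neurons, however, clusters were far apart. Neuron cluster 10 had 700 to 1016 CPM, and cortical interneuron precursor-like cells had 123 to 159 CPM, below all progenitor groups. That cluster of 572 cells also had the highest pooled Ndn, so that the pooled levels of Peg3, Peg10 and Ndn were all highest in 1 cluster. Its 722 to 1042 CPM of Ndn overlapped the 519 to 1256 CPM of pallial neuron-like cells.

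The genes whose levels were most like each member's were sought over 45 clusters of at least 20 cells and 13026 genes, by Pearson r on log2(CPM + 10). Meg3 was nearest to Rian (0.957), Gria2 and St6gal2. Rian was nearest to Meg3, B830012L14Rik (0.925) and Mirg (0.903), the last of which is an imprinted noncoding RNA of the same chromosome. Grb10 was nearest to Tead2 (0.954), Hmgn5 and Mdk, and H19 to Olig2 (0.873), Nrarp and Iqgap2. Plagl1 was nearest to Fhl1 (0.845), Wwc1 and Sema6d, and Dlk1 to Sema6d (0.767), Lhfp and Zfpm2. Ndn was nearest to Gng3 (0.941), Snap47 and Cnih2, and Peg10 to Id4 (0.875), Foxp4 and Foxp2. For Igf2 the nearest were Flt4, Heyl (each 0.986) and Chp2, which fell to 0.553, 0.564 and 0.007 without the non-neural clusters. Peg3 was near to Enah (0.880) and Kif21a, which fell to 0.548 and 0.556.

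A list of 52 other imprinted genes leaned to neurons. Of the 31 with at least 10 CPM, 22 were higher in neurons in all 4 libraries and 6 in progenitors, with a median log2 ratio of 0.52, beside 0.05 over all 9142 genes. The highest ratios were those of Magel2 (2.73), a relative of Ndn, Nap1l5 (2.23) and Sfmbt2 (2.01). The lowest were those of Peg12 (-2.52), Asb4 (-0.96) and Commd1 (-0.75). Of 11 genes of the insulin-like growth factor pathway at that level, 5 were higher in neurons and 4 in progenitors in all 4 libraries, with a median of 0.04. The binding protein genes Igfbpl1 (2.08) and Igfbp4 (1.22) and the insulin receptor gene Insr (0.75) were highest, and Igfbp5 (-2.56), Igf2bp1 (-0.89) and Igf2bp3 (-0.33) were lowest.

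**Figure D4:**
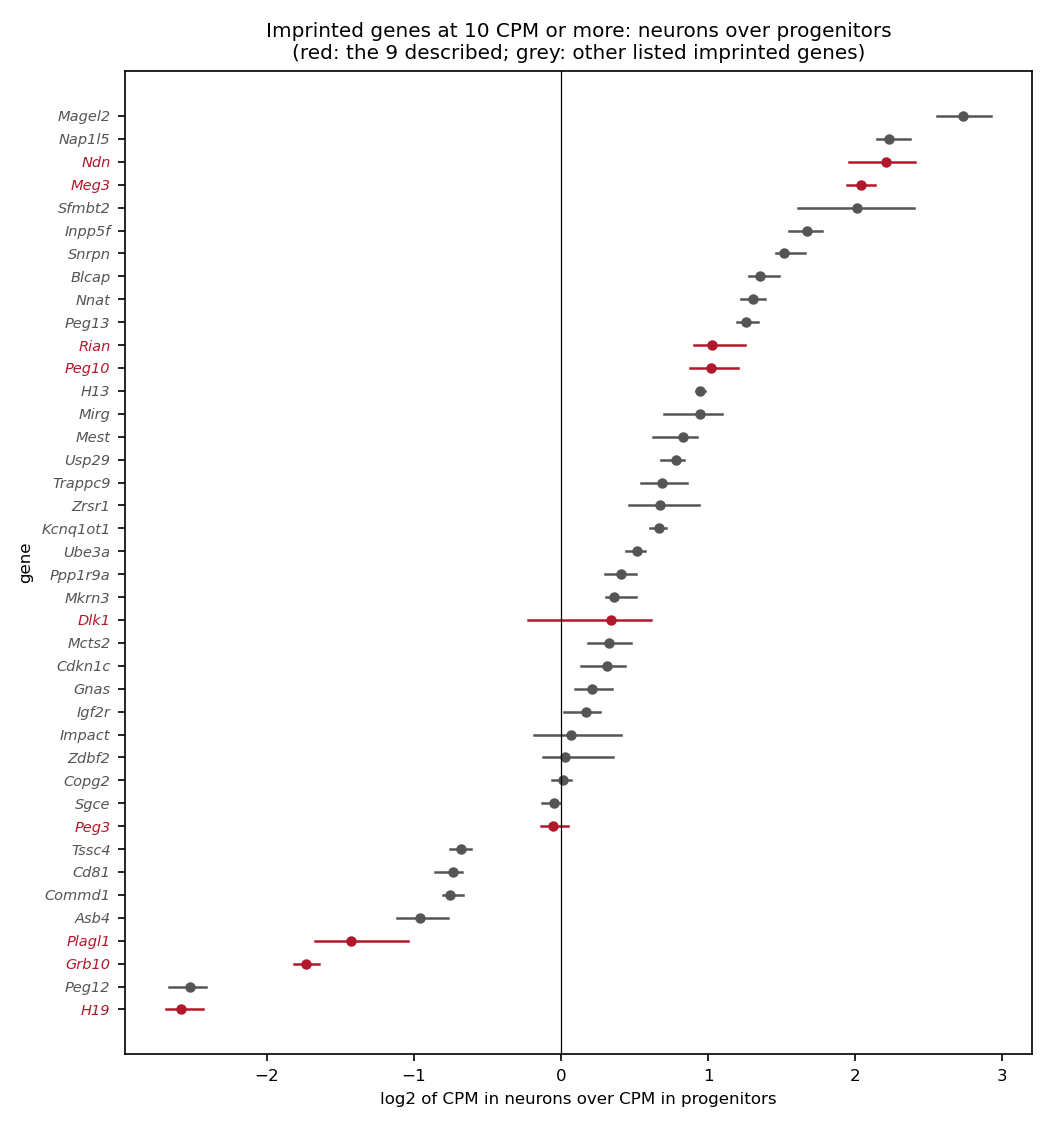
Log2 ratio of CPM in neurons over progenitors for the 9 members (red) and 31 other listed imprinted genes (grey) with at least 10 CPM in a class, with points for the mean and lines for the range over 4 libraries. Magel2 (2.73) and Nap1l5 (2.23) lie beside Ndn and Meg3 at the top, and Peg12 (-2.52) lies beside H19 at the bottom.

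No member passed the genotype test in neurons or in progenitors at an adjusted p of 0.05, where 0.0658% of 13684 and 0.0293% of 13644 genes did. Null was compared with WT by edgeR's quasi-likelihood test on summed counts, with Benjamini-Hochberg adjustment over all genes. Fitted differences were above 0 for 9 of 10 members in neurons and 8 of 10 in progenitors, with a median log2 of 0.34 and 0.28, beside medians over all genes of -0.00313 and -0.00305. In neurons 7 of 10 were above 0 without WT replicate 1, with a median of 0.20, and 8 of 10 in cells without a Xist UMI, with a median of 0.20. With library totals the median in progenitors was 0.47, where that of all genes was 0.19. Without adjustment, 5 of 10 members in neurons and 4 of 10 in progenitors had a p under 0.05, against 16.6% and 17.8% of all genes tested. On CPM scaled by TMM factors, null and WT libraries did not overlap for 7 of 10 members in neurons and 8 of 10 in progenitors, but 51% and 52.8% of all genes did not overlap either. On unscaled CPM this held for 7 and 9 of 10 members, beside 55.5% and 60% of all genes. Fewer cells of a type and less RNA per cell cannot be told apart in such sums. Neuron cluster 3 had 138 and 15 cells in null and 445 and 336 in WT. Neuron cluster 2 had 366 and 423 in null and 96 and 81 in WT. With equal cells per cluster, 9 of 9 members tested in neurons were above 0, with a median of 0.31. Igf2, at -0.60 in the main fit, was not tested in that setting, and Peg3 stood at 0.00038. There Dlk1 moved from 0.50 to 0.25 and Grb10 from 0.42 to 0.28, while H19 moved from 0.46 to 0.55 and Plagl1 from 0.13 to 0.38.

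Rian had the largest difference among members in progenitors. TMM-scaled, it stood at 87.9 and 98.2 CPM in null and at 66.9 and 64.2 CPM in WT progenitors, a log2 difference of 0.50 ± 0.11 (SE, n = 2 per genotype; edgeR adjusted p = 0.114). In neurons it stood at 176 and 198 CPM in null and at 125 and 149 CPM in WT, a log2 difference of 0.45 ± 0.13 (SE; edgeR adjusted p = 0.167). Null was higher in each case, without overlap. DESeq2 called Rian in both, with adjusted p of 0.0188 and 0.0485. It called 355 of 13644 genes in progenitors and 310 of 13684 in neurons. Meg3 in progenitors stood at 413 and 400 CPM in null and at 302 and 357 CPM in WT, a log2 difference of 0.30 ± 0.12 (SE; edgeR adjusted p = 0.256), which was 0.19 without WT replicate 1. In neurons its difference was 0.34 ± 0.15 (SE; edgeR adjusted p = 0.307), and it was 0.15 without WT replicate 1 and 0.55 without WT replicate 2. Dlk1 in neurons stood at 46.0 and 32.3 CPM in null and at 23.5 and 32.1 CPM in WT, so the library labelled null replicate 2 and WT replicate 2 nearly met.

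Grb10 stood at 65.5 and 73.3 CPM in null and at 53.9 and 49.99 CPM in WT neurons, a log2 difference of 0.42 ± 0.12 (SE; edgeR adjusted p = 0.167). The summed 10 progenitor markers were likewise higher in null neurons, with 1290 and 1284 CPM in null above the 1070 and 992 CPM of WT (unscaled), and their part in the Grb10 difference was not tested. H19 in progenitors stood at 53.0 and 51.6 CPM in null and at 42.4 and 39.7 CPM in WT, a log2 difference of 0.35 ± 0.11 (SE; edgeR adjusted p = 0.190). Peg10 had a log2 difference of 0.33 in both classes (SE 0.14 in each), which was 0.17 in neurons and 0.16 in progenitors without the library labelled null replicate 2. Ndn overlapped in neurons, with 298 and 319 CPM in null and 248 and 342 in WT. Igf2 was the only member with negative differences in both, from 11 to 28 UMIs per library and class. Peg3 was near 0, with 0.06 ± 0.11 in neurons and -0.01 ± 0.11 in progenitors (SE).

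**Figure D5:**
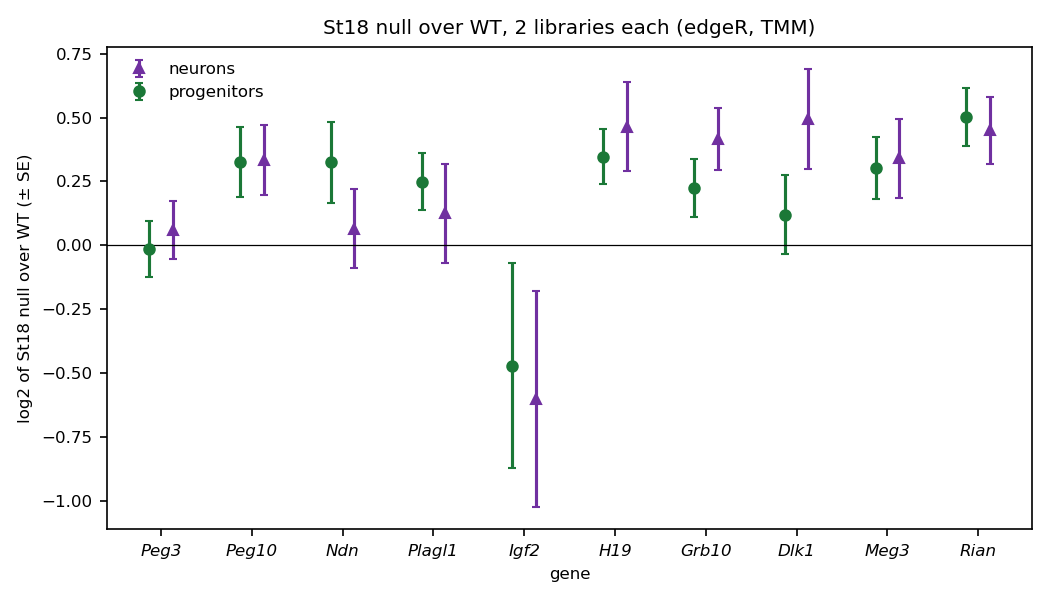
Log2 difference of St18 null over WT (edgeR, TMM, with SE) for each gene in neurons (purple triangles) and progenitors (green circles), 2 libraries per genotype. Most points lie above 0, Rian highest in progenitors (0.50) and Igf2 below 0 in both, and none passed the adjusted threshold.

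The calls depended on single libraries. Without the library labelled null replicate 1, edgeR called 3 members in neurons (Peg10, Grb10 and Rian) and 6 in progenitors (Peg10, Ndn, H19, Grb10, Meg3 and Rian), while it called 2420 and 5061 genes in all. Without the library labelled null replicate 2 it called 5 members in progenitors (Plagl1, H19, Dlk1, Meg3 and Rian) and 2508 genes in all. In these fits 1 null library is assumed to vary like the WT pair. Leaving out either WT library gave no call of a member in either class. In cells without a Xist UMI, the log2 difference of Meg3 was 0.03 in neurons and 0.14 in progenitors, and that of Rian 0.27 and 0.38. The members moved both ways, with Peg10 in neurons at 0.53 and H19 at 0.55 in neurons and 0.22 in progenitors. This filter kept 2342 of 3629 and 843 of 2418 null neurons, but 2700 of 2704 and 2527 of 2528 WT neurons. It thus removed cells almost only from the null libraries, and the sex of the cells left was not tested. Mitochondrial genes held 4.59% and 4.61% of neuron UMIs in null and 3.72% and 3.94% in WT, and Gm42418, a gene that overlaps ribosomal RNA, 12022 and 20457 CPM in null and 29922 and 29131 in WT, and their part in the differences was not tested. On unscaled CPM, Malat1, which followed Meg3 and Rian across clusters, was also higher in null. It stood at 26100 and 28088 CPM in null neurons and at 23310 and 24626 CPM in WT neurons. In progenitors it stood at 10038 and 11483 CPM in null and at 8736 and 9226 CPM in WT. The TMM factors, which divide CPM in the fitted differences, were 1.02 and 1.08 in null neurons and 0.94 and 0.96 in WT neurons. In progenitors they were 1.02 and 1.12 in null and 0.93 and 0.94 in WT. Both gaps are thus narrower on the TMM scale, and in progenitors null replicate 1 and WT replicate 2 nearly meet there. The part of Malat1 in the Meg3 and Rian differences was not tested.

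No member passed edgeR's interaction test at an adjusted p of 0.05, where 0.687% of 14405 genes did. That test asks whether the genotype effect differs between neurons and progenitors. Without adjustment, 3 of 10 members had a p under 0.05, against 8.41% of all genes. Dlk1 differed by 0.42 ± 0.15 and Grb10 by 0.22 ± 0.07, with the larger null effect in neurons, and Ndn by -0.22 ± 0.07, with the larger effect in progenitors (log2, SE; edgeR adjusted p = 0.378, 0.221 and 0.249). The Dlk1 value rested on single libraries, since it was 0.0033 without WT replicate 1 and 0.81 without WT replicate 2. Ndn was at -0.37 without null replicate 1 (edgeR adjusted p = 0.00153). The other 7 members differed by -0.08 to 0.15. These differences also moved with single libraries. Of all 10 members 6 were above 0, with a median of 0.06. Without WT replicate 1 it was 4, with a median of -0.07, and without WT replicate 2 it was 9, with a median of 0.19. In the lists, no gene passed the genotype test in either class among 38 and 37 other imprinted genes tested, with medians of 0.02 and -0.01, nor among 15 and 13 genes of the insulin-like growth factor pathway, with medians of 0.16 and 0.23.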

How the data were processed

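The authors aligned the reads with Cell Ranger (version 5.0.1 per the labels, while the file headers name Cell Ranger 4) to GRCm38 and deposited raw UMI counts per gene and barcode, with no normalization and no filter on cells. The kit's read end and the counting of strand are not given in the sources used here. Cells needed 2000 UMIs, 200 genes and at most 10% mitochondrial UMIs. Scrublet in scanpy 1.11.5 (30 principal components) ranked doublets, and the top 0.8% per 1000 cells were removed, because its own threshold marked under 0.1% of cells in each library. Cells were clustered in Seurat 5.3.0 with R 4.3.3 on 49 principal components at a resolution of 1.4, then again within progenitors and within neurons. A group is called "-like" from at least 3 markers of a list, and a cluster led by another class's markers stays unnamed. Summed counts of each class in each library were tested in edgeR 4.0.16 (TMM, filterByExpr, quasi-likelihood), with DESeq2 1.42.0 as an alternative. The script was tested on simulated data. CPM of single libraries carry counting error, and PCR and sampling add to it. The members and lists were chosen with earlier results of these data known. Named were all members, listed genes past a test, per list the 3 highest and 3 lowest ratios, and the 3 genes most like each member, of which 1 is not reported here. Alternatives were library totals, no count filter, other cell thresholds, doublet removal and clusters, cells without Xist, equal cells per cluster and each library left out. Clusters of low UMI were left out in an alternative chosen after seeing the data.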

Additional observations from a re-analysis of the deposited data

Results flagged for a closer look

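Irs2, an adaptor of insulin and insulin-like growth factor receptors in the pathway list, was the only listed gene whose genotype effect differed between neurons and progenitors. The log2 effect in neurons minus that in progenitors was -0.47 ± 0.11 (SE, edgeR interaction test, adjusted p = 0.0397). In progenitors its TMM-scaled level was 24.1 and 27.8 CPM in the null libraries, above the 19.2 and 19.9 CPM of WT. In neurons it was 20.96 and 23.8 CPM in the null libraries, overlapping the 24.0 and 23.6 CPM of WT. Neither class passed the threshold by itself.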

How the results depend on the processing

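With 2 libraries per genotype, the number of genes called between genotypes moved with most settings, and the causes were not tested. In neurons edgeR called 9 genes, against 40 with library totals in place of TMM, 310 with DESeq2, 188 with no count filter, 55 with 2 times the doublets removed, 1 in cells without Xist, 4 with equal cells per cluster and 80 without clusters of low UMI. In progenitors it called 4, against 110, 355 and 955 for the first 3 of these settings, 133 in cells without Xist, 21 with equal cells per cluster and 2 without clusters of low UMI. For the difference between the classes it called 99, against 50 with DESeq2, 180 with no count filter and 28 in cells without Xist. Leaving out 1 library gave 64 to 2420 genes in neurons, 63 to 5061 in progenitors and 12 to 157 for the difference, the highest each time without null replicate 1. Library totals moved the median log2 of all genes to 0.14 in neurons and 0.19 in progenitors.

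Of the members' genotype differences (log2), Peg3 in progenitors turned to 0.1843 with library totals, 0.0503 in cells without Xist and 0.0012 with equal cells per cluster, and ranged from -0.0829 to 0.0601 with 1 library left out. Ndn in neurons turned to -0.0483 in cells without Xist, was 0.305 with equal cells per cluster and ranged from -0.15 to 0.3099 with 1 library left out. Plagl1 in neurons ranged from -0.1293 to 0.4201, and Dlk1 in progenitors from -0.0525 to 0.2986, with 1 library left out. Dlk1 in progenitors was -0.0184 with equal cells per cluster. Rian in progenitors was also called with library totals and with no count filter. For the difference between the classes, Ndn was called with no count filter, without clusters of unclear class and without null replicate 1, and Dlk1 without clusters of unclear class and without WT replicate 2, while without WT replicate 1 the Dlk1 difference was 0.0033.

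The log2 ratios of neurons over progenitors kept their direction, except that of Igf2, which turned to -0.1892 without clusters of unclear class and to -0.0205 without WT replicate 2. Without those clusters Peg10 was at 1.1592, H19 at -2.7681, Grb10 at -2.0983 and Meg3 at 2.2305. With background of 5% subtracted, H19 was at -2.8319, Grb10 at -1.8288 and Meg3 at 2.1629. Meg3 was at 2.1352 with 2 times the doublets removed and at 1.9234 without clusters of low UMI. No paired analysis was possible because the labels carry no replicate numbers, and the numbers used here follow accession order and only name the libraries.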
